A study of Sus scrofa with 20 samples.

Results

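Transcripts of 4 genes of iron handling, FTH1, TFRC, SLC40A1 and HMOX1, were followed in epicardial adipose tissue, the fat that lies directly on the heart muscle, of Ossabaw miniature pigs, which become obese readily. The 4 genes were picked by symbol, with earlier results of these data known, so their levels and their differences between groups are given as a description without a test. For these 4 genes, p values are given only for relations between genes within groups, after group means were removed. Tests between groups were run on all genes. The numbers of genes called, which of the 4 were among them, and adjusted p values of other iron genes are given further on. Nothing is read from those calls for the 4 genes. All 4 were found among the 10157 gene names of the second of 2 deposited tables, and FTH1 and TFRC were also found by name among the 22861 rows of the first table. FTH1 and TFRC were therefore read from the first table and SLC40A1 and HMOX1 from the second. All 4 passed the filter on low counts in the second table, and FTH1 and TFRC passed it in the first.

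Iron enters most cells bound to transferrin through the transferrin receptor, which TFRC encodes. Iron that is not used at once is stored inside a hollow shell of ferritin, built from heavy chains (FTH1), which oxidise the metal on entry, and light chains (FTL), which help to lay down its core. It leaves cells through ferroportin (SLC40A1), the only iron exporter known in mammals, and a further supply is freed inside cells when haem oxygenase 1 (HMOX1) opens the haem ring. Tissue macrophages take up haemoglobin through the receptor CD163 and pass its iron on by this route. When iron is scarce, the iron regulatory proteins (ACO1 and IREB2) hold back the translation of ferritin and protect the messenger RNA of TFRC, so RNA levels record only some of this control.

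The 20 libraries came from 3 groups. In the WD+S group (n = 8) pigs were fed a Western diet, named atherogenic in the library labels and high in cholesterol, refined grain and saturated fat, and received atorvastatin, a statin that blocks cholesterol synthesis. In the HHD+S group (n = 6) atorvastatin was given with the Heart Healthy diet, which is high in fruit and vegetables, unrefined grain and unsaturated fat, and in the HHD group (n = 6) that diet was fed without the drug. Pigs on the Western diet without atorvastatin were not analysed here, so the drug was compared on 1 diet and the diets were compared only under the drug. WD+S and HHD differ in both diet and drug, and these cannot be told apart in that comparison. The labels give neither the age nor the sex of single animals, and the title numbers of the libraries are not said to be animals, so the spread between libraries may be technical in part.

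A library held 2749337 to 6543337 counts in the first table, and levels are given as CPM, its counts scaled to a common library size with edgeR's TMM method. In the second table, scaled in the same way, 4 fat cell genes were high in every library. They were ADIPOQ (4619 to 11357 CPM), PLIN1 (2048 to 4730 CPM), FABP4 (2444 to 5190 CPM) and LPL (1820 to 5632 CPM). Several libraries stood apart. In the second table, HHD replicates 3 and 5 held reads of both Y-linked genes and XIST, which is made from the silenced X chromosome of females. Replicate 3 held 1437 reads of XIST against 813 from the Y chromosome, and replicate 5 held 3396 against 147. WD+S replicates 3, 5, 7 and 8, HHD replicate 6 and HHD+S replicates 3 and 5 held a male pattern. That is 1012 to 1748 reads from the Y chromosome and at most 10 of XIST. The remaining libraries held 2728 to 6421 reads of XIST and at most 2 from the Y chromosome. By these reads the sexes were not spread evenly over the groups, and a Y-linked covariate entered only an alternative fit. The summed level of 17 interferon-induced genes in the second table was 742 to 916 CPM in HHD. It peaked at 9371 CPM in WD+S replicate 8, with 8848 CPM in HHD+S replicate 6 and 7379 CPM in HHD+S replicate 5. HHD replicate 2 held 143.3 CPM of cell cycle genes in the first table, against at most 61.0 CPM in the other libraries. File names carry a pool number whose meaning is not stated, with 4 libraries of each group in pool 1 and 4 WD+S, 2 HHD+S and 2 HHD libraries in pool 2. In a bulk tissue sample, fewer cells of a type and less RNA per cell cannot be told apart.

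The levels of the 4 genes lay far apart. Levels of different genes were compared on the authors' RPKM scale, which divides by gene length. FTH1 stood at 4445 ± 693 RPKM (SD, n = 20) and ranked between place 7 and place 11 of all gene names in every library. FTL, the light chain, stood at 2413 ± 414 RPKM, and FTH1 exceeded it in 20 of 20 libraries by a ratio of 1.39 to 2.70. RPKM values come from the second table alone, so the size of this ratio rests on it. In WD+S mean FTL was 2276 CPM there against 915 CPM in the first table, and mean FTH1 was 5756 against 5219 CPM. SLC40A1 followed at 104.0 ± 22.3 RPKM and HMOX1 at 57.1 ± 30.7 RPKM. These neighbours overlapped, since SLC40A1 ran from 60.2 to 154.1 RPKM and HMOX1 from 25.4 to 119.9 RPKM, yet SLC40A1 was the higher of the pair in 18 of 20 libraries. TFRC was lowest at 8.12 ± 2.27 RPKM, and its highest library (11.8 RPKM) lay below the lowest for HMOX1. In each of the 20 libraries the storage gene FTH1 thus exceeded the uptake gene TFRC by a ratio of RPKM values of at least 317.6 and at most 962.5.

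FTH1 (row ENSSSCG00000014540), the ferritin heavy chain, was highest with atorvastatin on the Heart Healthy diet. In the first table its level in HHD+S was 5480 CPM at the lowest, 6215 CPM at the median and 7267 CPM at the highest library. In HHD it was 4273, 4510 and 5435 CPM in the same order. In WD+S it was 4424, 5108 and 6457 CPM. All 6 HHD+S libraries lay above all 6 HHD libraries, although the nearest pair, 5480 and 5435 CPM, almost touched, and 0.0616% of the 11366 genes tested in the first table (7 genes) had HHD+S above HHD without overlap. Of the 8 WD+S libraries 6 lay below every HHD+S library, and the WD+S and HHD libraries overlapped, with 2 WD+S libraries above every HHD library. Between 0.415% and 0.724% of all counts of a library fell on this 1 gene, on 14815 to 40562 reads, so counting error was small beside the spread between libraries.

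The group means of FTH1 were 6218 ± 716 CPM in HHD+S (SD, n = 6), 4680 ± 453 CPM in HHD (SD, n = 6) and 5219 ± 597 CPM in WD+S (SD, n = 8). The log2 fold change of HHD+S against HHD was 0.41 (SE 0.11), a ratio of 1.33. That of WD+S against HHD+S was -0.25 (SE 0.11), and that of WD+S against HHD was 0.16 (SE 0.11). The HHD+S mean was the highest of the 3 and the HHD mean the lowest. The 3 comparisons share libraries, so they are not separate lines of evidence. In the second table the log2 fold changes were 0.39 (SE 0.11), -0.21 (SE 0.11) and 0.18 (SE 0.11) in the same order, and there 5 of 6 HHD+S libraries lay above every HHD library. In CPM of the second table the groups overlapped, with the lowest HHD+S library at 5855 CPM and the highest HHD library at 5937 CPM. On the authors' RPKM scale, which is also from the second table, they ran from 4408 to 5875 RPKM in HHD+S and 3350 to 4280 RPKM in HHD. The share of all genes without overlap was not computed on that scale, so nothing is read from this.

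**Figure D1:**
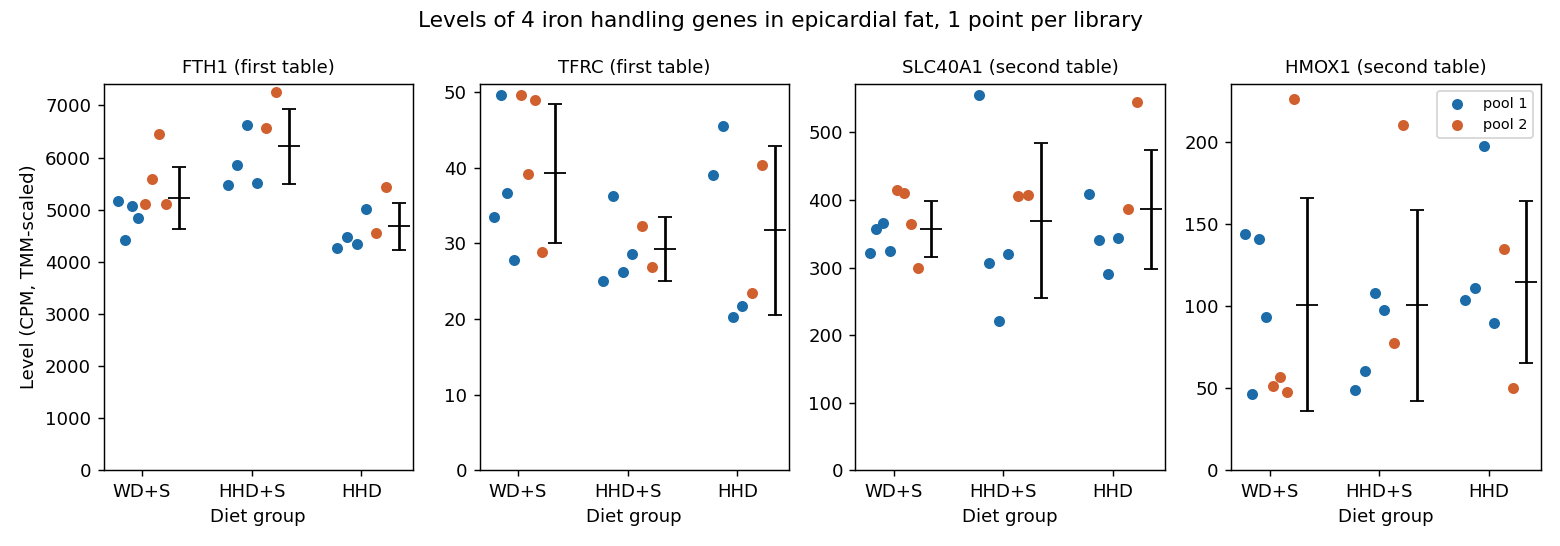
Level of FTH1 and TFRC (first table) and of SLC40A1 and HMOX1 (second table) in each of the 20 libraries, in CPM on an axis that starts at 0, by diet group and coloured by pool, with the group mean and SD as a bar. The HHD+S points of FTH1 (5480 to 7267 CPM) sit above the HHD points (4273 to 5435 CPM), whereas the groups overlap for the other 3 genes.

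The FTH1 values moved with the pool as well. Mean FTH1 was higher in pool 2 than in pool 1 in each group, at 5564 against 4874 CPM in WD+S, 6920 against 5867 CPM in HHD+S and 4994 against 4524 CPM in HHD. Most libraries with the male read pattern were in pool 2 (WD+S replicates 5, 7 and 8, HHD replicate 6 and HHD+S replicate 5). The parts of pool and sex in this shift thus cannot be fully told apart. Within pool 1 alone the log2 fold change of HHD+S against HHD was 0.38, and within pool 2 it was 0.47. The difference between WD+S and HHD+S was -0.28 and -0.31 within the pools, so both differences were of like size in each pool. Pool 2 held only 2 HHD+S and 2 HHD libraries, however. Interferon-induced genes were also higher in HHD+S. Of 18 such genes 17 were in the second table, none of them at 0, and all 17 had a positive log2 fold change for HHD+S against HHD (median 1.94), while edgeR called none. Their sum did not overlap between the groups either, with 922 to 8848 CPM in HHD+S and 742 to 916 CPM in HHD. HHD+S replicates 5 and 6, which had the highest sums of that group, had 6572 and 7267 CPM of FTH1. They were also the only HHD+S libraries in pool 2, so in that group pool and a high interferon sum cannot be told apart. HHD+S replicate 3 had 6619 CPM with an interferon sum of 1438 CPM, and WD+S replicate 8, with the highest interferon sum, had 5116 CPM. Without HHD+S replicates 5 and 6 the log2 fold change against HHD was 0.33 and that of WD+S against HHD+S was -0.17. The part of the interferon response in the FTH1 values was not tested beyond this.

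Near-identical copies can split the reads of FTH1. The second table lists 7 rows named as further heavy chain copies, of which 6 held no read in any library. FTH1Ps1*, a row named as a pseudogene, held 0 to 12 reads per library. The first table, from which FTH1 was read, was not searched for such rows. The counts are headed as unique reads, and how a unique read was defined is not given in the sources used here, so the absolute level of FTH1 is uncertain in that respect.

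TFRC (row ENSSSCG00000011848), the receptor for iron-laden transferrin, had its highest mean in WD+S. In the first table WD+S libraries ran from 27.8 CPM over a median of 37.9 CPM to 49.6 CPM. HHD+S libraries ran from 25.1 CPM over 27.7 CPM to 36.3 CPM. HHD libraries ran from 20.3 CPM over 31.2 CPM to 45.5 CPM. Of the 8 WD+S libraries 5 lay above every HHD+S library, and the HHD libraries spanned nearly the whole range, with replicates 3, 4 and 5 low at 20.3, 21.6 and 23.4 CPM and replicates 1, 2 and 6 high at 39.0, 45.5 and 40.3 CPM. TFRC rested on 77 to 307 reads per library, far fewer than FTH1.

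Mean TFRC was 39.2 ± 9.15 CPM in WD+S (SD, n = 8), 29.2 ± 4.26 CPM in HHD+S (SD, n = 6) and 31.7 ± 11.1 CPM in HHD (SD, n = 6). The log2 fold change of WD+S against HHD+S was 0.42 (SE 0.19), and within the pools it was 0.33 and 0.50. The second table gave 0.44 (SE 0.19). Against HHD the log2 fold change of WD+S was 0.31 (SE 0.19), which fell to 0.11 without HHD replicates 3 and 5 and rose to 0.45 without HHD replicate 2. That of HHD+S against HHD was -0.11 (SE 0.20), with -0.32 without HHD replicates 3 and 5 and 0.02 without HHD replicate 2. The comparisons of TFRC with HHD thus rested on which of the HHD libraries were kept. Leaving out single libraries gave 0.36 to 0.50 for WD+S against HHD+S.

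Markers of heart muscle, which lies under this fat, moved with the same contrast. Of 15 such markers 13 were in the first table, with TTN at 0, and their summed level was 363 to 6438 CPM in WD+S, 46.0 to 1558 CPM in HHD+S and 106 to 1139 CPM in HHD. All 11 that were tested had a positive log2 fold change for WD+S against HHD+S (median 1.43) and for WD+S against HHD (median 1.55), comparisons that share the WD+S libraries, and none was called by edgeR. Of the 12 fat cell markers, tested in the second table, 0 had a positive one in either comparison, with medians of -0.37 and -0.27. The 3 WD+S libraries with the most TFRC, replicates 2, 5 and 7 at 49.6, 49.5 and 48.9 CPM, had the highest heart muscle sums of all 20 libraries, at 2363, 6438 and 2324.6 CPM. The part of heart muscle content in the TFRC values was not tested.

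FTH1 and TFRC, for storage and uptake, pointed opposite ways between the diets under the drug. The ratio of FTH1 to TFRC on the RPKM scale was 482 ± 101 in WD+S (SD, n = 8), 745 ± 137 in HHD+S (SD, n = 6) and 587 ± 241 in HHD (SD, n = 6). The ratio ran from 341.7 to 622.5 in WD+S and from 556.3 to 962.5 in HHD+S, so these ranges overlapped only between 556.3 and 622.5. The lowest WD+S ratios, 341.7 and 361.6, were in replicates 2 and 5, the libraries with the highest heart muscle sums. Since both genes were chosen with these results known, no test of this ratio was made, and the part of heart muscle content in it was not tested.

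SLC40A1, which encodes the exporter ferroportin, showed no separation of the groups. Its level in the second table was 299.7 CPM at the lowest, 360.3 CPM at the median and 414.7 CPM at the highest WD+S library. In HHD+S it was 220.7, 362.6 and 555.4 CPM, and in HHD 290.5, 365.1 and 545.5 CPM. The medians nearly coincided, and the widest spread was within HHD+S, between replicate 3 at the bottom and replicate 1 at the top. Means were 357.0 ± 41.2 CPM (SD, n = 8), 369.0 ± 114.7 CPM (SD, n = 6) and 385.9 ± 88.3 CPM (SD, n = 6) in the same order. The log2 fold changes were -0.05 (SE 0.16) for WD+S against HHD+S, -0.06 (SE 0.18) for HHD+S against HHD and -0.11 (SE 0.16) for WD+S against HHD. Each lay within its standard error of 0, which does not show that the groups are alike. In the first table the row that the reference list of gene names ties to SLC40A1 (ENSSSCG00000027157) held no read in any of the 20 libraries, although the second table counted 836 to 2205 reads of this gene per library.

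HMOX1, the inducible haem oxygenase, varied more between single libraries, relative to its mean, than the other 3 genes did. Its WD+S libraries ran from 46.3 CPM over a median of 74.9 CPM to 226.0 CPM. Its HHD+S libraries ran from 49.0 CPM over 87.6 CPM to 210.2 CPM, and its HHD libraries from 49.8 CPM over 107.5 CPM to 197.3 CPM. Each group held 1 library near 200 CPM or above, WD+S replicate 8, HHD+S replicate 6 and HHD replicate 3, and each reached down to about 50 CPM, so the groups covered the same range. Means were 100.8 ± 64.8 CPM in WD+S (SD, n = 8), 100.4 ± 58.1 CPM in HHD+S (SD, n = 6) and 114.4 ± 49.4 CPM in HHD (SD, n = 6). The log2 fold changes were 0.01 (SE 0.39), -0.19 (SE 0.41) and -0.18 (SE 0.39), for WD+S against HHD+S, HHD+S against HHD and WD+S against HHD. With standard errors of this size, group differences well above those seen for FTH1 could not have been resolved. The sign changed between the pools in all 3 comparisons, at 0.44 and -0.63, -0.69 and 0.68, and -0.25 and 0.05 within pools 1 and 2.

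**Figure D2:**
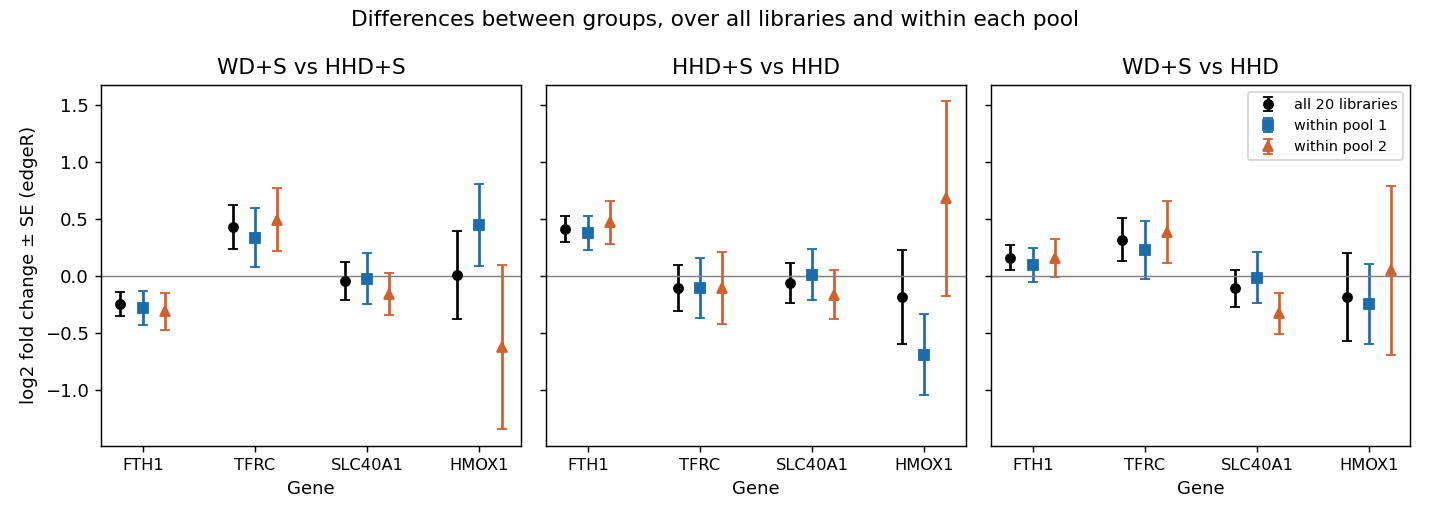
Log2 fold change with its standard error (edgeR) of the 4 genes in the 3 comparisons, over all 20 libraries (black circles) and within pool 1 (blue squares) and pool 2 (orange triangles). FTH1 keeps its sign in both pools, at 0.38 and 0.47 for HHD+S against HHD, with 2 libraries of each of these groups in pool 2. HMOX1 lies on opposite sides of 0 in the pools.

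Across libraries of the same group, HMOX1 rose with CD163, the macrophage receptor for haemoglobin bound to haptoglobin. After subtraction of each group's mean, log2 levels in the second table correlated with Pearson's r = 0.79 and Spearman's rho = 0.79 over 20 libraries. With permutation within groups and adjustment over the 10 pairs of genes computed, the p values were 0.0034 and 0.0047. Without the 2 libraries farthest from the median of HMOX1, r was 0.68, and within pools 1 and 2 it was 0.71 and 0.79. The pairs with CD163 and FTL were added after values had been seen. The adjustment over the 10 pairs does not cover that choice, so the p values of these pairs are only descriptive. The first table held at most 3 reads of CD163 in any library, so this relation rests on the second table alone, with 171 to 1697 reads.

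A wider list of macrophage genes was summed beside HMOX1, without a test. Of 18 macrophage markers 16 were in the second table, none of them at 0, and their summed level was 724 to 3647 CPM in WD+S, 1383 to 5570 CPM in HHD+S and 1278 to 5246 CPM in HHD. Only 1 of the 16 had a positive log2 fold change for WD+S against HHD+S (median -0.32), and 1 for WD+S against HHD (median -0.39). For HHD+S against HHD 5 of 16 were positive (median -0.12), and edgeR called none in any comparison. The 4 libraries with the most HMOX1, WD+S replicate 8, HHD+S replicate 6, HHD replicate 3 and WD+S replicate 1, had macrophage sums of 3234, 5570, 3139 and 3647 CPM. The 3 with the least, WD+S replicates 2 and 7 and HHD+S replicate 1, had 1369, 1874 and 2083 CPM, below the median of 2252 CPM. The order was not kept throughout, since HHD replicate 2 and HHD+S replicate 5 had macrophage sums of 5246 and 3982 CPM with only 111.1 and 77.5 CPM of HMOX1. The part of macrophage content in the HMOX1 values was not tested. For FTH1 the correlation with CD163 was -0.10 (adjusted permutation p = 0.79), and for SLC40A1 it was -0.20 (adjusted permutation p = 0.62).

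TFRC ran against HMOX1 within groups. Pearson's r was -0.59 (permutation p adjusted over the 10 pairs 0.026) and Spearman's rho -0.62 (adjusted permutation p 0.025) over 20 libraries. It was -0.63 without the 2 libraries farthest from the median of TFRC, and -0.33 and -0.92 within pools 1 and 2. SLC40A1 against HMOX1 gave r = -0.50 and rho = -0.52, which did not pass after adjustment (permutation p = 0.077 and 0.070), with -0.54 and -0.81 within the pools. No correlation of FTH1 with the other 3 genes passed, with r between -0.12 and 0.06 (adjusted permutation p = 0.79 in each case), and its relation with TFRC changed sign between the pools (-0.66 and 0.53). The heavy and light chains of ferritin were only loosely related across libraries, at r = 0.36 (adjusted permutation p = 0.42).

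**Figure D3:**
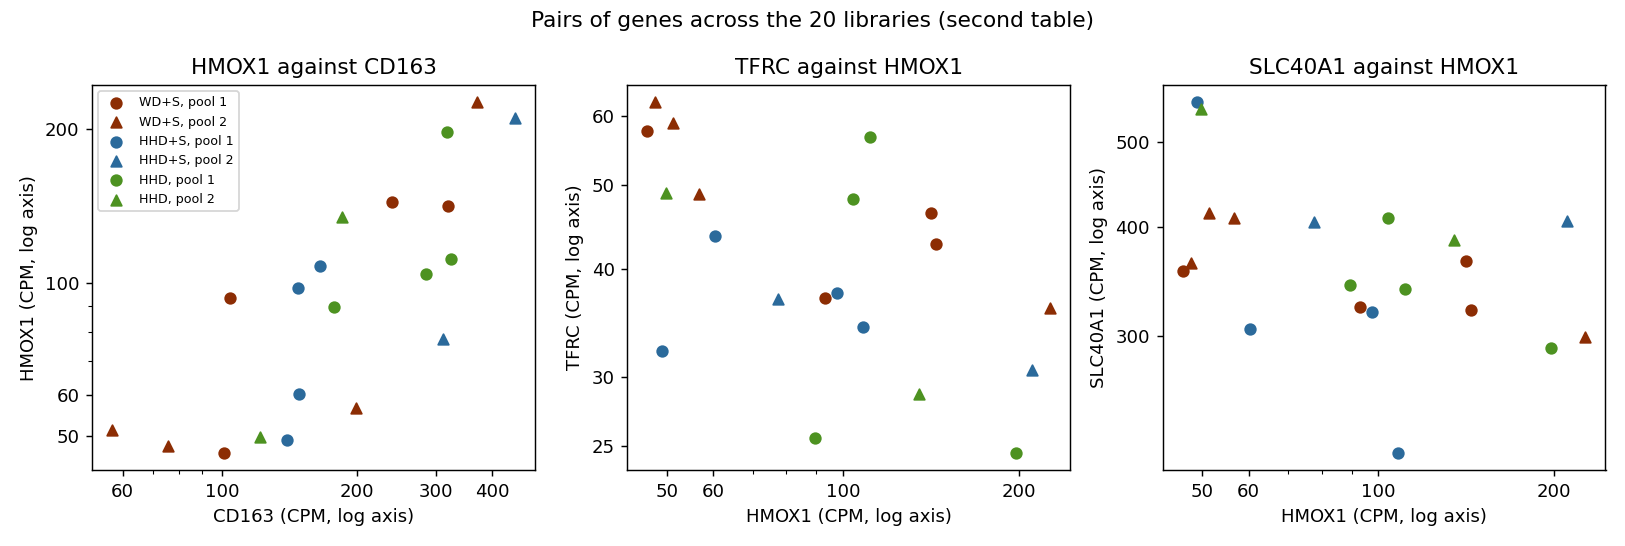
Levels of 3 pairs of genes in the 20 libraries of the second table, in CPM on log axes, coloured by group with circles for pool 1 and triangles for pool 2. HMOX1 increases with CD163 (r = 0.79 within groups) and TFRC decreases with HMOX1 (r = -0.59) over all 20 libraries.

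The genes whose pattern over the 20 libraries, group means removed, was most like each of the 4 were as follows, as a description. For FTH1 they were TXNDC15 (r = 0.82), HSP90AA1, a heat shock chaperone (r = 0.77), and RNF113A (r = 0.77), among 10454 genes with a symbol. In the second table a different trio, PSMD4, APOM and PHB, came closest at r = 0.76, 0.76 and 0.74. For TFRC it was AHR, the aryl hydrocarbon receptor, in both tables (r = 0.90 in the first and 0.88 in the second), followed in the first by AKAP11 and AGTPBP1 (r = 0.85 each). For SLC40A1 they were PCYT1A (r = 0.76), KIT, the stem cell factor receptor (r = 0.75), and PCDH18 (r = 0.75), among 6684 genes. For HMOX1 they were SLA (r = 0.97), RIPK1 (r = 0.94) and LRRC32 (r = 0.88). All such pairs share libraries and depth, and a best match among so many genes is high by choice.

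No gene passed edgeR's quasi-likelihood test at an adjusted p of 0.05 in any comparison, in either table, which makes 0% of 11366 genes tested in the first and 0% of 6685 in the second. At an unadjusted p under 0.05 the first table had 988 genes for WD+S against HHD+S (8.69%), 960 for HHD+S against HHD (8.45%) and 1299 for WD+S against HHD (11.4%). FTH1 and TFRC were both among the 988, FTH1 was among the 960, and neither was among the 1299. DESeq2 called 10 genes (0.088%), 11 genes (0.0968%) and 81 genes (0.713%), of which FTH1 in HHD+S against HHD was the only one of the 4, and limma-voom called 0. In the second table none of the 4 was called by DESeq2, which called 10 (0.15%), 12 (0.18%) and 80 genes (1.2%) there. Because the 4 genes were chosen with these contrasts known, nothing is read from these counts or from the absence of overlap for FTH1.

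Around the 4 genes, 8 lists covered 93 genes of iron storage, uptake, export, haem turnover, iron-sulfur clusters, regulation and the targets of NFE2L2, a factor that switches on antioxidant genes. Of these, 65 were tested in the first table, 62 in the second and 83 in at least 1 of them. None passed edgeR's adjusted test in any comparison. At an unadjusted p under 0.05, 4, 9 and 5 of the 65 passed for WD+S against HHD+S, HHD+S against HHD and WD+S against HHD, and 2, 8 and 5 of 63 with FTH1 and TFRC left out. DESeq2 called 0, 1 and 0, that 1 being FTH1. The median log2 fold changes of the 65 genes were -0.02, 0.00015 and 0.02, beside -0.01, -0.01 and -0.02 over all genes tested in the same order. Of the 65, 23, 33 and 33 had a positive value, and no test was made of whether the lists differ from other genes.

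Among the storage genes, FTL had a mean of 995 ± 150 CPM in HHD+S (SD, n = 6), 837 ± 182 CPM in HHD (SD, n = 6) and 915 ± 194 CPM in WD+S (SD, n = 8) in the first table. Its log2 fold change for HHD+S against HHD was 0.25 (SE 0.16, edgeR adjusted p = 0.70), and that for WD+S against HHD+S was -0.12 (SE 0.15, edgeR adjusted p = 0.87). FTL had the same signs as FTH1 at a smaller size, but its groups overlapped and it did not pass. Its level was 2276 CPM in WD+S in the second table, against 915 CPM in the first, so the tables count this gene differently. NCOA4, the receptor that carries ferritin to the lysosome for breakdown, had 85.4 ± 22.4 CPM in HHD+S (SD, n = 6) and 112.5 ± 13.7 CPM in HHD (SD, n = 6). In 4 of 6 HHD+S libraries it was lower than in any HHD library, and its log2 fold change was -0.40 (SE 0.15, edgeR adjusted p = 0.47).

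Among the uptake genes, 8 of 12 were tested in the first table. CYBRD1, a ferric reductase that readies iron for import, had 342 ± 54.2 CPM in HHD+S (SD, n = 6) and 457 ± 69.3 CPM in HHD (SD, n = 6). Its log2 fold change of -0.42 (SE 0.15) had an edgeR adjusted p of 0.47. TF, the transferrin gene itself, had 40.4 ± 8.33 CPM in WD+S (SD, n = 8) and 50.4 ± 20.4 CPM in HHD+S (SD, n = 6), which is -0.32 on the log2 scale (SE 0.25, edgeR adjusted p = 0.77). TFRC had the most positive log2 fold change of the 8 for WD+S against HHD+S, and the others ran down to -0.36. Of the 11 tested in the second table, STEAP2, a metalloreductase, was above TFRC in that comparison, at 0.57 (SE 0.32, edgeR adjusted p = 0.68) against 0.44.

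Among the export partners, CP, the ceruloplasmin ferroxidase that aids ferroportin, had 3.36, 2.46 and 3.83 CPM on average in WD+S, HHD+S and HHD in the first table and 6.83, 5.72 and 6.96 CPM in the second. HEPH, a ferroxidase related to it, had a log2 fold change for WD+S against HHD of 0.51 (SE 0.26, edgeR adjusted p = 0.48) in the first table and 0.50 (SE 0.27, edgeR adjusted p = 0.51) in the second. HAMP, which encodes hepcidin, the liver hormone that removes ferroportin from the cell surface, averaged below 0.5 CPM in every group (0.24, 0.44 and 0.18 CPM) and was too low to test.

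Around HMOX1 in the breakdown of haem, BLVRA, the biliverdin reductase that takes its product, had 25.3 ± 3.13 CPM in HHD+S (SD, n = 6), 19.7 ± 3.21 CPM in HHD (SD, n = 6) and 21.2 ± 2.14 CPM in WD+S (SD, n = 8). Its log2 fold change was 0.36 (SE 0.12, edgeR adjusted p = 0.45) for HHD+S against HHD and -0.25 (SE 0.11, edgeR adjusted p = 0.55) for WD+S against HHD+S. For HP, the haptoglobin gene, the log2 fold change of HHD+S against HHD was -1.43 (SE 0.61) with an edgeR adjusted p of 0.55, and it was -0.58 without HHD replicate 2, where HP stood at 188.1 CPM. CD163 stood at 183 ± 118, 227 ± 127 and 235 ± 84.8 CPM in WD+S, HHD+S and HHD in the second table, and WD+S against HHD+S gave -0.31 on the log2 scale (SE 0.39, edgeR adjusted p = 0.93). Red cell markers, of which 12 of 14 were present in the first table and none was at 0, summed to 171 to 752 CPM in WD+S, 19.1 to 920 CPM in HHD+S and 265 to 654 CPM in HHD. The lowest red cell sums, 19.1 and 74.8 CPM, were in HHD+S replicates 5 and 6, and the part of blood content in the values of the haem genes was not tested.

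Of 9 haem synthesis genes 8 were tested. CPOX, the coproporphyrinogen oxidase, had 42.9 ± 5.93 CPM in WD+S (SD, n = 8) and 57.3 ± 9.93 CPM in HHD (SD, n = 6). Its log2 fold change of -0.42 (SE 0.12) had the lowest adjusted p of all iron genes in any comparison (edgeR adjusted p = 0.22), and 5 of 8 WD+S libraries were lower than any HHD library. For WD+S against HHD+S it was -0.23 (SE 0.12, edgeR adjusted p = 0.63). The gene was not tested in the second table.

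Of 23 genes of mitochondrial iron and iron-sulfur clusters 19 were tested, with 13 of 19 positive for HHD+S against HHD at a median log2 fold change of 0.16, beside -0.01 over all genes. Of 12 tested in the second table, 5 were positive, at a median of -0.01. For FDX1L, a ferredoxin of the cluster pathway, the log2 fold change in that comparison was 0.39 (SE 0.14) with an edgeR adjusted p of 0.47. ISCA1, a cluster assembly factor, had one of 0.31 (SE 0.13, edgeR adjusted p = 0.35) for WD+S against HHD.

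All 8 regulators tested in the first table had a negative log2 fold change for HHD+S against HHD (median -0.14), and all 8 had one for WD+S against HHD (median -0.18). The medians over all genes tested were -0.01 and -0.02. The share of all genes with a negative value is not given here, so nothing is read from these counts. The comparisons of HHD+S and of WD+S with HHD share the HHD libraries, and negative regulators numbered 9 of 11 and 10 of 11 in the second table. ACO1, an iron regulatory protein, stood at 238 ± 69.6 CPM in WD+S (SD, n = 8), 299 ± 61.0 CPM in HHD+S (SD, n = 6) and 312 ± 34.6 CPM in HHD (SD, n = 6). Its log2 fold change was -0.39 (SE 0.16, edgeR adjusted p = 0.34) for WD+S against HHD and -0.33 (SE 0.16, edgeR adjusted p = 0.58) for WD+S against HHD+S. The latter was -0.69 within pool 1 and -0.0030 within pool 2. IREB2, its partner, had log2 fold changes of 0.05, -0.09 and -0.04 for WD+S against HHD+S, HHD+S against HHD and WD+S against HHD. BMP6, the signal that raises hepcidin in liver, had -0.31 (SE 0.14, edgeR adjusted p = 0.39) for WD+S against HHD in the first table. The tables count this gene differently, at 193 CPM in WD+S in the first against 30.5 CPM in the second. For WD+S against HHD the second table also gave -0.31 (SE 0.17). For HHD+S against HHD the sign changed, from -0.25 in the first to 0.07 in the second. BACH1, the haem-sensing repressor of HMOX1, was tested in the second table, with -0.36 (SE 0.20, edgeR adjusted p = 0.64) for HHD+S against HHD. NFE2L2, an activator of HMOX1 and of ferritin genes, had 203.4, 203.6 and 219.7 CPM on average in WD+S, HHD+S and HHD.

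Of 12 NFE2L2 targets 9 were tested, and their median log2 fold changes were 0.03, -0.11 and 0.04 in the 3 comparisons. SRXN1, sulfiredoxin, which repairs oxidised peroxiredoxins, had 19.6 ± 4.11 CPM in WD+S (SD, n = 8), and ran from 7.33 to 18.4 CPM in HHD+S and from 9.22 to 19.8 CPM in HHD. It had the largest log2 fold change among the targets, 0.71 (SE 0.24, edgeR adjusted p = 0.37) for WD+S against HHD+S, with 6 of 8 WD+S libraries above every HHD+S library. TXNRD1, a thioredoxin reductase, had 0.26 (SE 0.14, edgeR adjusted p = 0.62) in the same comparison. SRXN1 also had 0.59 (SE 0.24, edgeR adjusted p = 0.32) for WD+S against HHD, which shares the WD+S libraries.

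**Figure D4:**
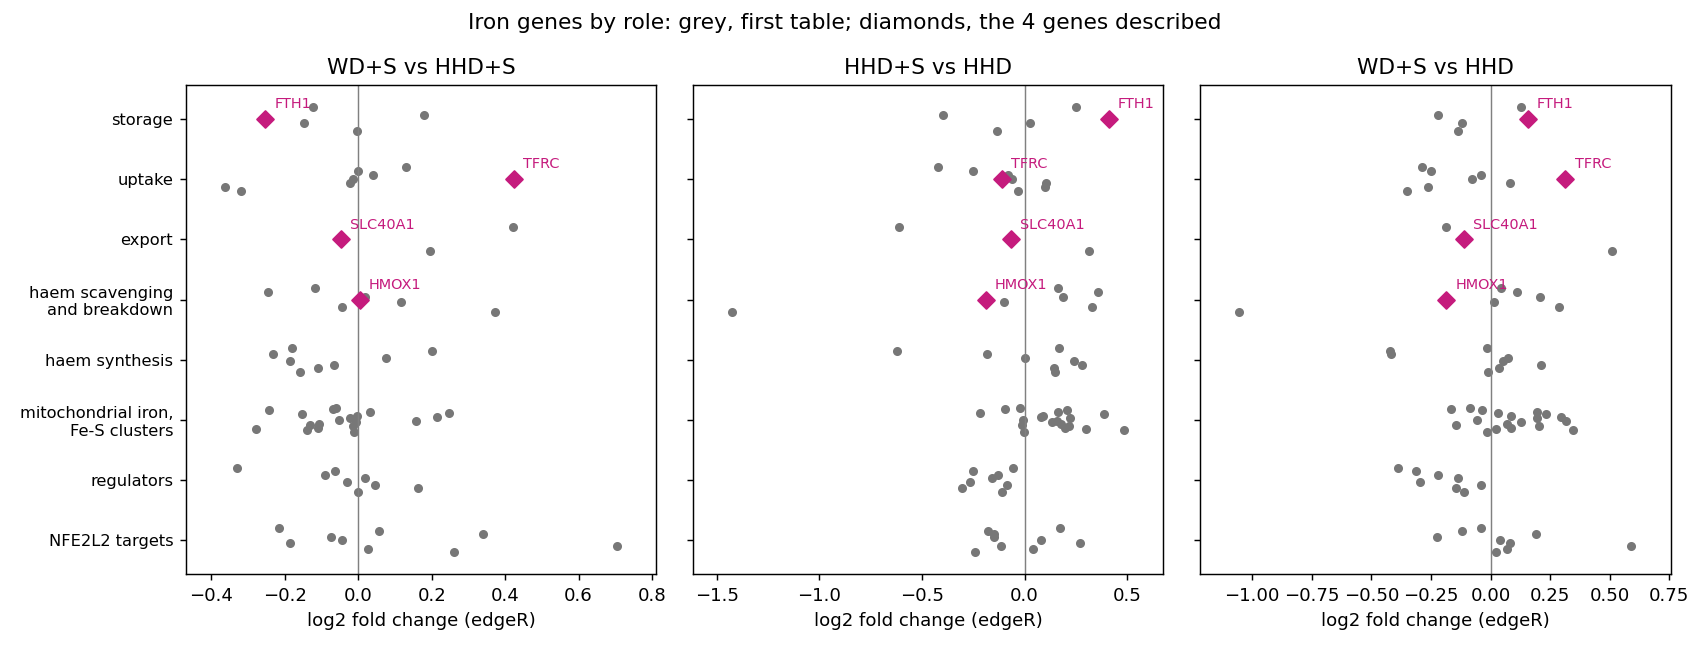
Log2 fold change (edgeR) of the iron genes tested in the first table, in rows by role, for the 3 comparisons, with FTH1, TFRC, SLC40A1 and HMOX1 as labelled diamonds, the last pair taken from the second table. Most points lie between -0.5 and 0.5, FTH1 lies at the right of the storage row for HHD+S against HHD (0.41), and the point at -1.43 in the haem breakdown row is HP.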

How the data were processed

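RNA was sequenced from epicardial fat in 20 libraries, 8 WD+S, 6 HHD+S and 6 HHD, grouped by their diet label. Per the labels' protocols, RNA was DNase-treated, and the library kit (TruSeq RNA v2) keeps no strand, so antisense or overlapping genes cannot be told apart. The build was Sscrofa10.2 and reads were written with bcl2fastq 2.17.1.14, per the submitters' processing notes. The aligner and the counting program were not given in the sources used here.

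For each library the authors deposited a pair of tables, and both hold whole-number counts per gene, per the file headers unique exon reads (first) and unique gene reads (second). The origin of the second gene set is not stated. The second also holds RPKM values by the authors, per the file headers, which served only to compare levels between genes. Counts summed to 2749337 to 6543337 (first) and 2751997 to 6192662 (second) per library. Sequences and coordinates are not used here.

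The counts as deposited were fitted with edgeR 4.0.16 in R 4.3.3 (quasi-likelihood F test, TMM, expression filter with minimum count 10 and minimum total 15, 1 fit over the 3 groups) in each table, and p was adjusted by Benjamini-Hochberg over all genes tested, with a threshold of 0.05. HMOX1 and SLC40A1 could only be fitted in the second table, in place of the first as planned. Standard errors were computed from the F statistic and are approximate. Alternatives used DESeq2 1.42.0, limma-voom (limma 3.58.1), other scaling and filters, each pool, a Y-linked covariate and libraries left out. Correlations used log2 CPM (prior count 2) and 100000 permutations within groups (Python 3.11.15, scipy 1.17.1). The fit was tested on simulated data.

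The 4 genes and all gene lists were chosen with earlier results of these data known. By rule, the text names the 4 genes, the 5 other iron genes with the smallest p in each comparison, a fixed set of their partners and, for each of the 4, the 3 genes most correlated with it. Other values named were chosen after they were seen.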

Additional observations from a re-analysis of the deposited data

Results flagged for a closer look

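In groups of 6 or 8 libraries, the highest or lowest library was compared with its nearest neighbour for the 4 genes and the other iron genes named, and 6 of 66 groups held a library whose gap to the nearest exceeded Dixon's 95% critical value. Chance marks about 1 in 20 groups.

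HMOX1 stood at 210.2 CPM in HHD+S replicate 6, with the next HHD+S library at 108.0 CPM. The same library had the highest macrophage sum (5570 CPM) and CD163 level (450.2 CPM) of all 20 and an interferon sum of 8848 CPM, and their part in the HMOX1 level was not tested.

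In HHD replicate 2, which had the highest cell cycle sum, 3 genes stood far above the other HHD libraries. HP was at 188.1 CPM with the next at 76.1 CPM, TF was at 95.7 CPM with the next at 47.9 CPM, and CP was at 9.01 CPM with the next at 4.23 CPM. FTH1 in that library was 4468 CPM, within the range of its group.

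CPOX stood at 55.1 CPM in WD+S replicate 6, with the next WD+S library at 45.5 CPM. BMP6 was lowest in HHD replicate 6 at 152.6 CPM, with the next HHD library at 242.8 CPM.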

How the results depend on the processing

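FTH1 kept its sign in all 32 alternatives of each comparison, with log2 fold changes of 0.33 to 0.47 for HHD+S against HHD, -0.31 to -0.17 for WD+S against HHD+S and 0.10 to 0.20 for WD+S against HHD. Most alternatives left out a single library, so they shared nearly all their data and are not separate checks. TFRC kept its sign in 32 of 32 for WD+S against HHD+S (0.33 to 0.50) and in 31 of 32 for HHD+S against HHD. SLC40A1 ran between -0.33 and 0.11 and HMOX1 between -0.69 and 0.68 over all comparisons, and both changed sign. HMOX1 for HHD+S against HHD was 0.68 within pool 2, on 2 libraries a group. CPOX for WD+S against HHD+S turned to 0.058 within pool 2. The cause was not tested in either case. A repeat in another table was not possible for HMOX1 and SLC40A1.

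The number of genes called over the whole table, 0 in each comparison, was 10, 11 and 81 with DESeq2 for WD+S against HHD+S, HHD+S against HHD and WD+S against HHD. It was 1 for WD+S against HHD+S when only those groups were fitted and 1 within pool 1. It was 1 for WD+S against HHD when only those groups were fitted, 14 within pool 1 and 1 without HHD+S replicates 5 and 6. Leaving out single libraries gave 0 to 1 for WD+S against HHD+S (1 without HHD+S replicate 2), 0 for HHD+S against HHD and 0 to 22 for WD+S against HHD (22 without WD+S replicate 1 and 14 without HHD replicate 6). The number of iron genes called was 1 with DESeq2 for HHD+S against HHD and 0 otherwise in the alternatives run.

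No paired analysis was possible because the replicate numbers used here follow the order of deposit, and no label ties libraries of different groups together. At 77 to 307 reads, TFRC carries a counting error that FTH1 does not.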
